A study of Ovis aries with 62 samples.

Results

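Block 3 was one of the 4 test periods in which the AUS ewes were housed, fed and measured, and its 14 sheep were those whose sample labels gave test block 3, of 62 sheep in all. They were compared with the 32 sheep labelled block 2 (16 sheep) or block 4 (16 sheep), while the 16 sheep of block 1 were left out. All sheep were Merino ewes of about 3 years, the progeny of 4 sires that the labels do not give, and all ate the same lucerne:oat chaff ration, so the blocks share genotype group, sex and diet and differ by the test period of 4 weeks and by the animals in it. Block 3 is the smallest of the blocks because sheep were lost from it during the experiment. The tissue was the full thickness of the ventral rumen wall, with 1 RNA sequencing library per sheep, which means that epithelium, connective tissue and muscle were read together. A block is a single occasion, so the tests measure the spread between sheep, and the period cannot be told apart from anything else that came with it.

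The rumen is a fermentation chamber lined by a stratified, cornified epithelium. Microbes release acetate, propionate and butyrate, which cross the epithelium with the help of proton exchangers, monocarboxylate transporters and carbonic anhydrases. Much of the butyrate is oxidized in the epithelial cells, where mitochondrial enzymes split it to acetyl-CoA and turn this into acetoacetate and 3-hydroxybutyrate, the ketone bodies. Below the epithelium lie connective tissue and layers of smooth muscle that mix the digesta, and a sample with more muscle holds proportionally less epithelial RNA. For this reason each gene was also compared with a muscle covariate in the fit, the mean of NEXN, an actin-binding protein of muscle, and KCNMA1, a potassium channel of smooth muscle. The study also related both genes to feed retention time, so the covariate is not a measure of muscle content alone.

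The muscle covariate was at similar levels in the blocks. In log2 CPM (reads scaled to the size of the library, on a log2 scale) it ran from 4.02 to 6.96 with a median of 5.99 in block 3, from 4.38 to 7.07 with a median of 5.68 in block 2, and from 4.74 to 6.89 with a median of 5.95 in block 4. The lowest of these 46 sheep was oz141 of block 3. The mean of block 3 differed from that of blocks 2 and 4 by -0.00921 (SE 0.221, n = 14 and 32, 2-sided permutation test with 100000 permutations, p = 0.96). Leaving out oz141 gave a difference of 0.134 in the other direction (permutation p = 0.516). NEXN and KCNMA1 themselves differed by -0.08 and 0.06 (log2), with limma adjusted p of 0.966 and 0.97.

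Live weight was the labelled trait with the smallest p between the groups. Block 3 sheep weighed 47 to 73 kg with a median of 59.75 kg, and the sheep of blocks 2 and 4 weighed 49 to 78.5 kg with a median of 65.25 kg. The groups overlapped over most of their range, and the mean of block 3 was lower by 5.37 kg (SE 2.38, n = 14 and 32, permutation p = 0.0346, and 0.138 after Benjamini-Hochberg adjustment over the 4 traits tested). CH4 production averaged 22.8 g/d in block 3 and 23.97 g/d in blocks 2 and 4 (permutation p = 0.457). DMI averaged 1.12 and 1.17 kg/d (permutation p = 0.599), and CH4 yield 20.8 and 21.2 g/kg DMI (permutation p = 0.785), each without sheep oz151 of block 3. The label of that sheep gives a DMI of 0.0795 kg/d, the lowest of the 46, and a CH4 production of 23.9 g/d that is identical to that of oz224, also of block 3.

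The libraries of the 46 sheep held 4208032 to 12130080 assigned reads, with medians of 8215480 in block 2, 8694507 in block 3 and 8588580 in block 4, and no 2 libraries held identical values. The median correlation of a library with the others across genes was 0.948 at the lowest, in oz141, and 0.958 at the highest, in oz206, both of block 3, so no library stood apart. Keratinized epithelium and smooth muscle were both present in block 3, where the mean over 21 cornification markers was 7.997 to 9.26 log2 CPM and the mean over 23 smooth muscle markers was 7.97 to 10.1 log2 CPM. Gene symbols were at hand for 1224 of 16011 genes, which the study had listed largely because they belong to its network clusters or follow its traits, so counts over named genes cover this selection. No defining marker of endothelium, lymphoid, myeloid and mast cells, enteric neurons or erythrocytes was among them, and the abundance of these cells was not assessed.

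Without the muscle covariate, no gene passed an adjusted p of 0.05 in limma (0 of 16011 genes, 0% in either direction), and the smallest adjusted p was 0.0656. At an unadjusted p under 0.05 there were 500 genes higher in block 3 (3.12%) and 740 lower (4.62%). With the muscle covariate, 8 of 16009 genes were lower in block 3 (0.05%) and 0 were higher (0%). At an unadjusted p under 0.05 this fit gave 672 genes higher (4.2%) and 948 lower (5.92%), which is 10.1% of the genes in all. For comparison, block 2 against block 4 gave 1056 genes (6.6%) at an unadjusted p under 0.05 in the same fit, and 5 genes (0.0312%) past the adjusted threshold. The covariate narrowed the residual SD from a median of 0.36 to 0.33 (log2) over all genes. The differences themselves stayed close to those without it.

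**Figure D1:**
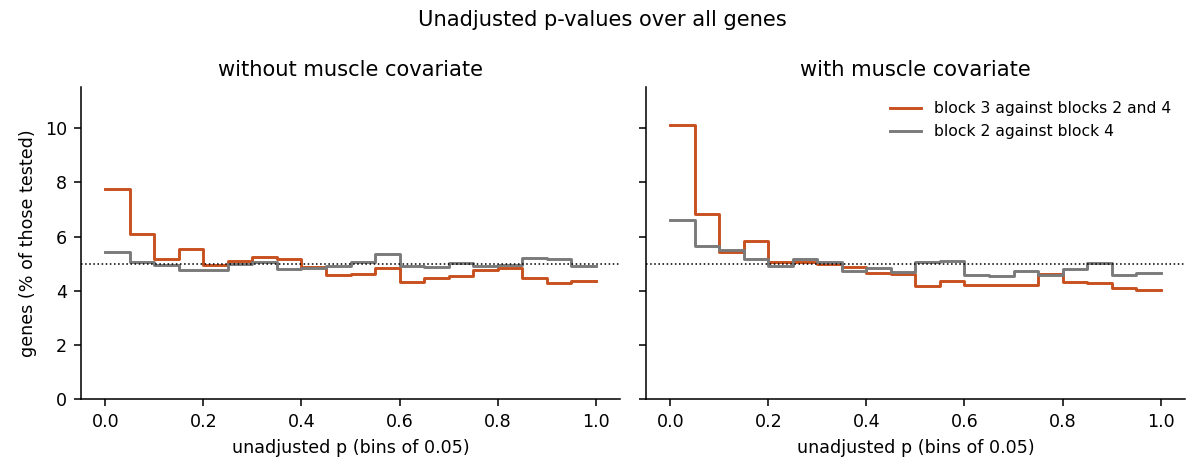
Percentage of genes tested (vertical axis) in each bin of unadjusted limma p (horizontal axis, bins of 0.05), without (left) and with (right) the muscle covariate, for block 3 against blocks 2 and 4 (orange) and block 2 against block 4 (grey). The dotted line is an even spread over the bins. The first bin of the block 3 comparison holds 7.74% of genes without the covariate and 10.1% with it, against 5.45% and 6.6% for block 2 against block 4.

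CBR1, TM7SF2 and KRT6-B were the 3 genes with a symbol that were lower in block 3 past the adjusted threshold at equal muscle covariate. CBR1 is a carbonyl reductase that uses NADPH to reduce quinones, aldehydes and prostaglandins. It ran from 4.38 to 6.05 log2 CPM with a median of 4.99 in block 3, from 4.91 to 6.14 with a median of 5.73 in block 2, and from 4.91 to 6.60 with a median of 5.69 in block 4. Of the 14 block 3 sheep, 13 lay below the median of blocks 2 and 4, and 6 lay below all 32 sheep of those blocks, yet the ranges overlapped. With the covariate CBR1 was lower by a log2 difference of -0.67 (SE 0.13, limma adjusted p = 0.0137), so that expression decreased by 37.4%. The difference was -0.65 against block 2 and -0.70 against block 4, and block 2 and block 4 differed by -0.06 (limma adjusted p = 0.976).

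TM7SF2 encodes a sterol reductase of cholesterol synthesis. Its values were 4.86 to 6.11 log2 CPM with a median of 5.29 in block 3, 5.26 to 6.41 with a median of 5.97 in block 2, and 5.26 to 6.44 with a median of 6.13 in block 4. Again 13 of 14 block 3 sheep were under the median of blocks 2 and 4, and 3 were below their lowest sheep. At equal muscle covariate the difference was -0.51 (SE 0.09, limma adjusted p = 0.00629), with -0.46 against block 2 and -0.55 against block 4. TM7SF2 was not on the list of sterol synthesis genes, of which 3 were measured. NSDHL, a further enzyme of that pathway, had a difference of -0.21 (limma adjusted p = 0.291), and SREBF2, the transcription factor that controls the pathway, -0.19 (limma adjusted p = 0.497). The third member was below 0 by less than either of these, and none of the 3 passed.

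KRT6-B encodes a type II keratin of stratified epithelia. It was among the abundant transcripts, with 9.21 to 10.7 log2 CPM and a median of 10.1 in block 3, 9.97 to 10.98 with a median of 10.3 in block 2, and 9.89 to 11.3 with a median of 10.6 in block 4. Of the block 3 sheep, 13 of 14 had values under the median of blocks 2 and 4, and 6 were below all of their sheep. The difference was -0.59 (SE 0.13, limma adjusted p = 0.0414). It was -0.46 against block 2 and -0.72 against block 4. Keratin 6 genes are close copies of each other. The study counted uniquely mapped reads, so reads matching several copies may be left out. The value of any single copy is therefore uncertain. The call was also lost, with adjusted p of 0.0531 to 0.125, when any one of oz120, oz143, oz151, oz183, oz187, oz197, oz238 or oz95 was left out, while the difference stayed between -0.54 and -0.64 over all 14 omissions. It was also lost under 12 of 18 other settings. The 18 include the fit without oz151, which is also among the omissions.

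**Figure D2:**
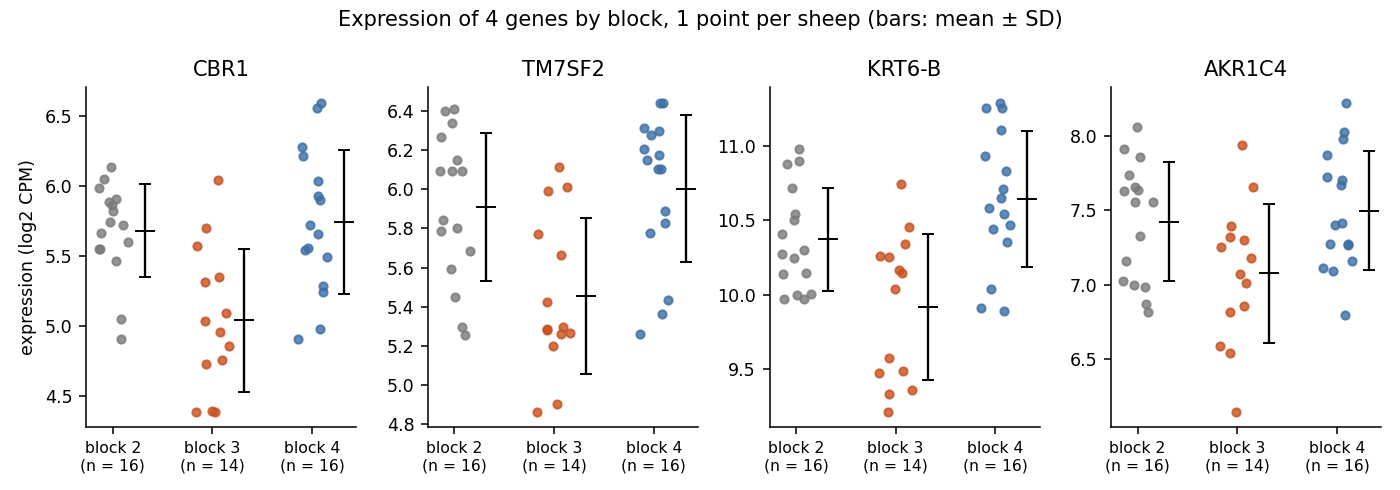
Expression in log2 CPM (vertical axis) of CBR1, TM7SF2, KRT6-B and AKR1C4 in each sheep of block 2 (grey, n = 16), block 3 (orange, n = 14) and block 4 (blue, n = 16), with the mean and SD beside the points. For CBR1, TM7SF2 and KRT6-B, 13 of 14 block 3 sheep lie under the median of blocks 2 and 4, and for AKR1C4, an aldo-keto reductase that did not pass the test, 12 of 14 do.

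The remaining 5 of the 8 genes carry no symbol here, and their differences lay between -0.33 and -0.49. ENSOARG00000007493 had the smallest p without the covariate (limma adjusted p = 0.0656). It ran from 5.09 to 6.16 log2 CPM with a median of 5.77 in block 3, from 5.52 to 6.52 with a median of 6.003 in block 2, and from 5.70 to 6.71 with a median of 6.37 in block 4. All 14 block 3 sheep were under the median of blocks 2 and 4. With the covariate the difference was -0.48 (SE 0.09, limma adjusted p = 0.00629), but it was uneven, at -0.35 against block 2 and -0.61 against block 4. ENSOARG00000011840 was 4.72 to 6.32 log2 CPM with a median of 5.46 in block 3, and its medians were 5.84 in block 2 and 5.96 in block 4. Its difference of -0.49 (SE 0.10, limma adjusted p = 0.0414) was alike against block 2 (-0.50) and block 4 (-0.48). The call of ENSOARG00000011840 was lost on leaving out oz120, oz183, oz187, oz197, oz224, oz238 or oz61, with adjusted p of 0.064 to 0.125. It was also lost under 8 of 18 other settings, with adjusted p of 0.055 to 0.352. CBR1, TM7SF2 and ENSOARG00000007493 passed under each of the 14 omissions.

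The number of genes past the threshold depended on single sheep. Over the 14 omissions it was 3 to 11 genes lower and 0 to 4 higher. It was 3 without oz120 or oz197, 4 without oz143, oz183, oz187 or oz238, and 5 without oz61. Genes higher were 4 without oz200, 2 without oz206, and 1 without oz95 or oz151. Without the covariate, 2 genes were lower without oz141 or oz200 and 1 without oz206 or oz224. Adding live weight to the fit with the muscle covariate left 0 genes past the threshold in either direction, with 0.0515 as the smallest adjusted p. With live weight in the fit the difference was -0.56 for CBR1, -0.46 for TM7SF2 and -0.57 for KRT6-B. CBR1 and TM7SF2 passed under 15 of 18 other settings, which again include the fit without oz151. They lost the call with live weight in the fit and against block 2 alone (adjusted p of 0.0993 and 0.0974). They also lost it with the mean of the other metabolism cluster in the fit (adjusted p of 0.107 and 0.0579). That mean includes TM7SF2 itself. The part of live weight in these differences was not tested further.

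The muscle covariate acted through the slope of each gene on it. Over the 46 sheep, 2698 genes (16.9%) rose and 2683 (16.8%) fell with the covariate past the adjusted threshold. TM7SF2 fell by 0.38 log2 units per log2 unit of the covariate (SE 0.06), and its residual SD went from 0.37 to 0.28. For ANTXR2, a receptor that binds matrix collagens and laminin, the slope was 0.80 (SE 0.05) and the residual SD went from 0.57 to 0.23. Its difference between block 3 and the other blocks was 0.25 without the covariate (limma unadjusted p = 0.175) and 0.26 with it (unadjusted p = 0.000878, adjusted p = 0.165). No gene had a muscle slope in block 3 that differed from the slope in blocks 2 and 4 past the adjusted threshold of limma (0% of genes), and 495 genes (3.09%) did at an unadjusted p under 0.05.

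**Figure D3:**
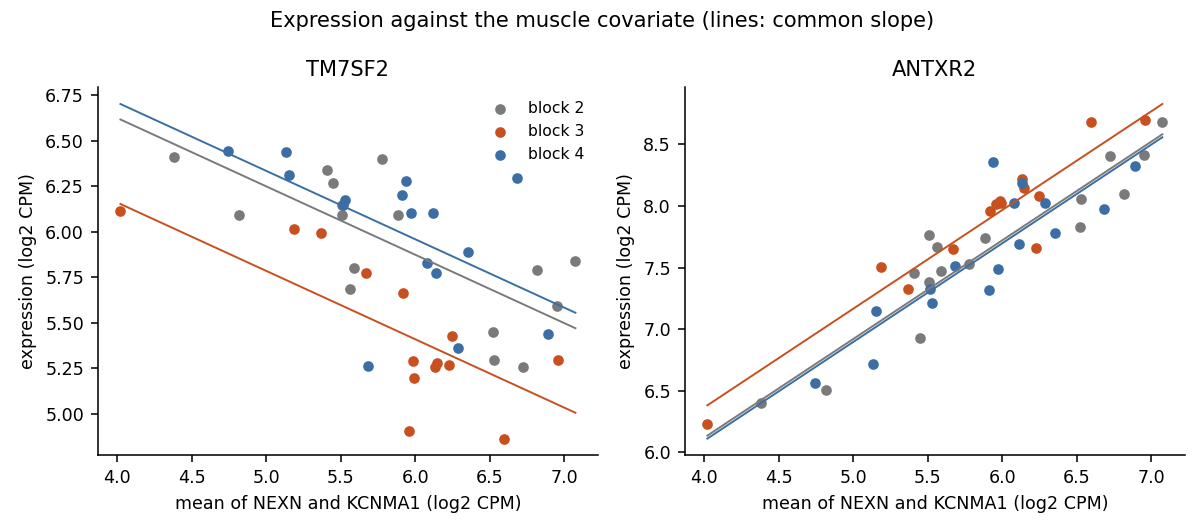
Expression in log2 CPM (vertical axes) of TM7SF2 (left) and ANTXR2 (right) against the muscle covariate, the mean of NEXN and KCNMA1 in log2 CPM (horizontal axes), in 1 point per sheep of block 2 (grey), block 3 (orange) and block 4 (blue). The lines have the common slope of the fit, -0.38 for TM7SF2 and 0.80 for ANTXR2. The block 3 line lies 0.51 below the mean of the other lines for TM7SF2 and 0.26 above it for ANTXR2.

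The genes of butyrate oxidation and ketone body synthesis had values below 0 in most members, although none passed the adjusted threshold. Of the 8 members of the list reported here, 7 had a difference below 0 with the covariate, and 3 of them had an unadjusted p under 0.05 in limma, where 5.92% of all genes did. The median difference was -0.17, beside -0.0064 over all genes. ACADS, the short-chain acyl-CoA dehydrogenase of butyrate oxidation, ran from 7.09 to 8.62 log2 CPM with a median of 7.71 in block 3, from 7.44 to 8.53 with a median of 8.04 in block 2, and from 7.25 to 8.67 with a median of 7.97 in block 4. Of the block 3 sheep 9 of 14 were under the median of blocks 2 and 4, and 2 were below all of their sheep, while the upper ends overlapped. Its difference was -0.25 (SE 0.10, limma unadjusted p = 0.016, adjusted p = 0.356), with -0.30 against block 2 and -0.21 against block 4.

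The other steps of the pathway gave smaller values. The remaining 7 genes are all given, a choice made after their values were seen. ACSF2, which activates fatty acids, differed by -0.16, and ACSS1, the mitochondrial acetate-activating enzyme, by -0.18. The dehydrogenase HADH differed by -0.18, the hydratase ECHS1 by -0.08, and the thiolase ACAT1 by -0.11. BDH1, which interconverts acetoacetate and 3-hydroxybutyrate, differed by -0.18 with medians of 9.26 log2 CPM in block 3, 9.40 in block 2 and 9.42 in block 4. The 1 member of the 8 above 0 was OXCT1, the transferase by which other tissues use ketone bodies, with a difference of 0.15 (SE 0.07, limma unadjusted p = 0.042, adjusted p = 0.477) and medians of 6.28, 6.26 and 6.08 log2 CPM in blocks 3, 2 and 4. OXCT1 and ACSS1 belonged to the muscle cluster of the study, unlike the other 6 genes, and rose with the muscle covariate by 0.63 and 0.73 log2 units per log2 unit.

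Transport and acid handling gave a similar pattern. Of 8 measured genes on that list, 6 were below 0 and 5 of these had an unadjusted p under 0.05, beside 5.92% of all genes, with a median difference of -0.21. CA12, a membrane carbonic anhydrase, was 7.90 to 10.01 log2 CPM with a median of 8.87 in block 3, 8.80 to 9.68 with a median of 9.27 in block 2, and 8.21 to 10.1 with a median of 9.25 in block 4. Its difference was -0.41 (SE 0.12, limma unadjusted p = 0.00121, adjusted p = 0.184), although the highest block 3 sheep came close to the highest of all. ABCC3, an exporter of organic anions, had medians of 9.06 in block 3, 9.34 in block 2 and 9.33 in block 4, and a difference of -0.30 (SE 0.09, adjusted p = 0.184). The monocarboxylate transporter SLC16A1 had medians of 9.93, 10.1 and 10.2 log2 CPM in blocks 3, 2 and 4 and a difference of -0.26 (SE 0.11, adjusted p = 0.395). Its chaperone BSG differed by -0.21 (SE 0.07, adjusted p = 0.264).

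Of the sodium/proton exchangers, SLC9A2 differed by -0.21 (SE 0.10) and SLC9A3, with medians of 9.03, 8.85 and 9.001 log2 CPM in blocks 3, 2 and 4, by 0.02 (SE 0.09). The phospholipid flippase ATP8A1 differed by -0.18 and the sodium/glucose cotransporter SLC5A1 by 0.12 (SE 0.14). Without oz183 or without oz238, 3 of the 8 members in place of 5 had an unadjusted p under 0.05 in the lower direction. With live weight in the fit, 3 transport genes and 0 ketone body genes had one, and the medians were -0.16 and -0.11. Over all genes, 623 of 16009 were lower at that p in this fit.

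**Figure D4:**
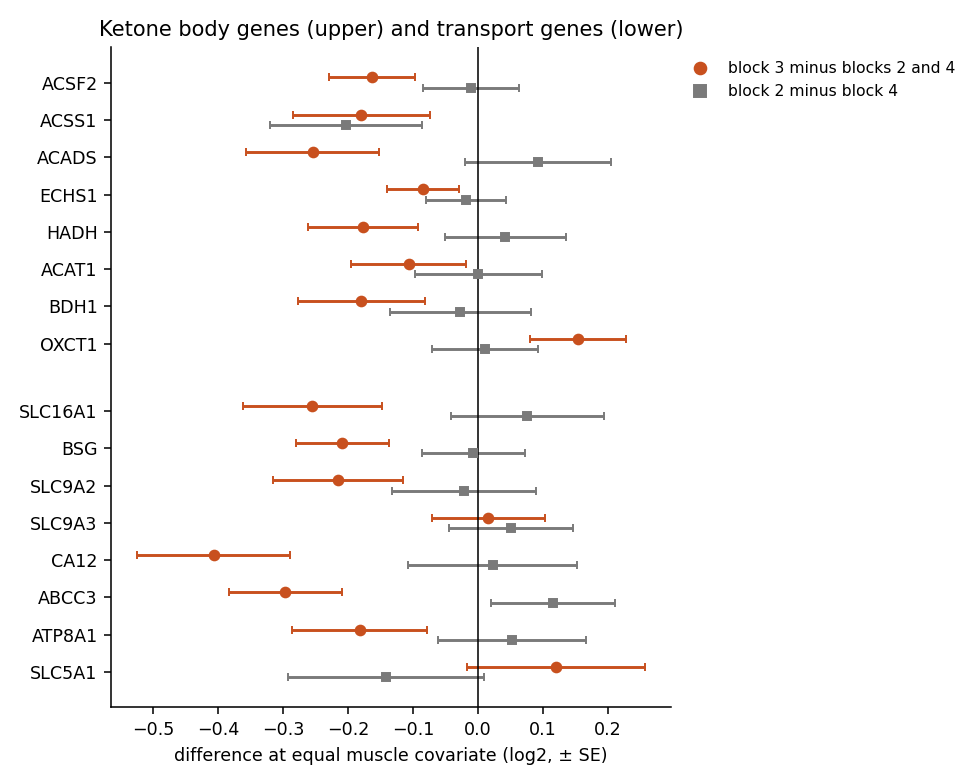
Difference in log2 expression at equal muscle covariate, with its SE (horizontal axis), of 8 genes of butyrate oxidation and ketone body synthesis (upper group) and 8 genes of transport (lower group), for block 3 minus blocks 2 and 4 (orange circles) and block 2 minus block 4 (grey squares). The orange circles lie below 0 for 7 of 8 and 6 of 8 genes, with ACADS at -0.25 and CA12 at -0.41, while the grey squares scatter around 0.

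The lipid/oxo-acid metabolism cluster, which the study drew from a network that included these sheep, held 41 measured genes, 6 of them described above. With the covariate 39 of the 41 were below 0, with a median of -0.17, and 23 (56.1%) had an unadjusted p under 0.05 in limma, beside 5.92% of all genes. Of them 1, CBR1, passed the adjusted threshold. Adding live weight to this fit changed the number of genes lower at an unadjusted p under 0.05 from 948 to 623 of 16009. Of the 41, 10 then had an unadjusted p under 0.05, and the median was -0.12. Without the muscle covariate 14 of the 41 had one, beside 4.62% of all genes, and this count was 24 without oz141, 8 without oz120, 7 without oz197 or oz238 and 6 without oz183. All 39 were lower against both block 2 and block 4, whereas 37.3% of all genes were. Between block 2 and block 4 the median was 0.003 and none of the 41 had an unadjusted p under 0.05 in limma, beside 6.6% of all genes. The members were grouped by co-expression, so they are not independent of each other.

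Per sheep, the mean of the 41 genes was 7.39 to 8.54 log2 CPM with a median of 7.94 in block 3, 7.82 to 8.50 with a median of 8.09 in block 2, and 7.49 to 8.45 with a median of 8.09 in block 4. Block 3 thus held both the lowest sheep, oz238, and the highest, oz141, which had the lowest muscle covariate of these sheep. Of the 14 sheep, 12 were below the median of the others. Without oz141 the median difference over the list was -0.23 without the covariate and -0.19 with it, and without oz183 it was -0.13 and -0.15. In bulk tissue fewer epithelial cells and less RNA per cell cannot be told apart.

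Aldo-keto reductases, which act on carbonyls as CBR1 does, had lower values too. AKR1C4, a reductase of steroids and carbonyls, ran from 6.14 to 7.94 log2 CPM with a median of 7.13 in block 3, and had medians of 7.56 in block 2 and 7.41 in block 4. Its difference was -0.39 (SE 0.11, limma unadjusted p = 0.000702, adjusted p = 0.155). Prostaglandin F synthase 1-like, of the same family, had medians of 8.18, 8.52 and 8.61 log2 CPM in blocks 3, 2 and 4 and a difference of -0.44 (SE 0.11, adjusted p = 0.105). These genes are close copies. The study counted uniquely mapped reads, so reads that match several copies may be left out. IDH3B, a subunit of a citric acid cycle dehydrogenase, was one of the 2 members of the cluster above 0, with 0.03.

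CBR1, AKR1C4 and Prostaglandin F synthase 1-like were also among 13 measured genes that the study had selected for their relation with CH4 in these and other sheep. This list was added after the values were seen, and it is no independent evidence. All 13 were below 0 with a median of -0.25, and 11 had an unadjusted p under 0.05, beside 5.92% of all genes. SULT1C2, a sulfotransferase, differed by -0.40, ABHD11, a mitochondrial hydrolase, by -0.29, and FAM162A, a mitochondrial membrane protein, by -0.20. With CH4 production in the fit besides muscle, 6 genes were past the adjusted threshold and the median of the lipid/oxo-acid cluster was -0.15. With DMI in the fit and oz151 left out, it was -0.16.

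Other metabolic lists lay below 0 by less. Of the 354 genes of the other metabolism cluster, which holds TM7SF2, 269 were below 0, and 68 (19.2%) were lower and 4 (1.13%) higher at an unadjusted p under 0.05, beside 5.92% and 4.2% of all genes. The 4 higher genes became 2 without oz224 or oz61. The median was -0.05. TUBA4A, an alpha-tubulin of that cluster, had medians of 8.98, 9.23 and 9.25 log2 CPM in blocks 3, 2 and 4 and a difference of -0.26 (SE 0.06, limma adjusted p = 0.105). All 14 genes of the respiratory electron transport chain were below 0, with a median of -0.08, and 2 of them, UQCR10 of complex III (-0.18) and COX5A of complex IV (-0.19), had an unadjusted p under 0.05. Of 37 ribosomal protein genes, 27 were below 0 with a median of -0.02. With the mean of the 354 genes as a further covariate, 0 genes passed the adjusted threshold, and 32 of the 41 lipid/oxo-acid genes were below 0 with a median of -0.07, and 6 had an unadjusted p under 0.05. In that fit 787 of 16009 genes were lower at an unadjusted p under 0.05. The covariate averages genes of which 269 were themselves below 0 in block 3, and it includes TM7SF2. Smaller differences and lost calls can therefore follow from the fit itself, and no conclusion is drawn from them.

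**Figure D5:**
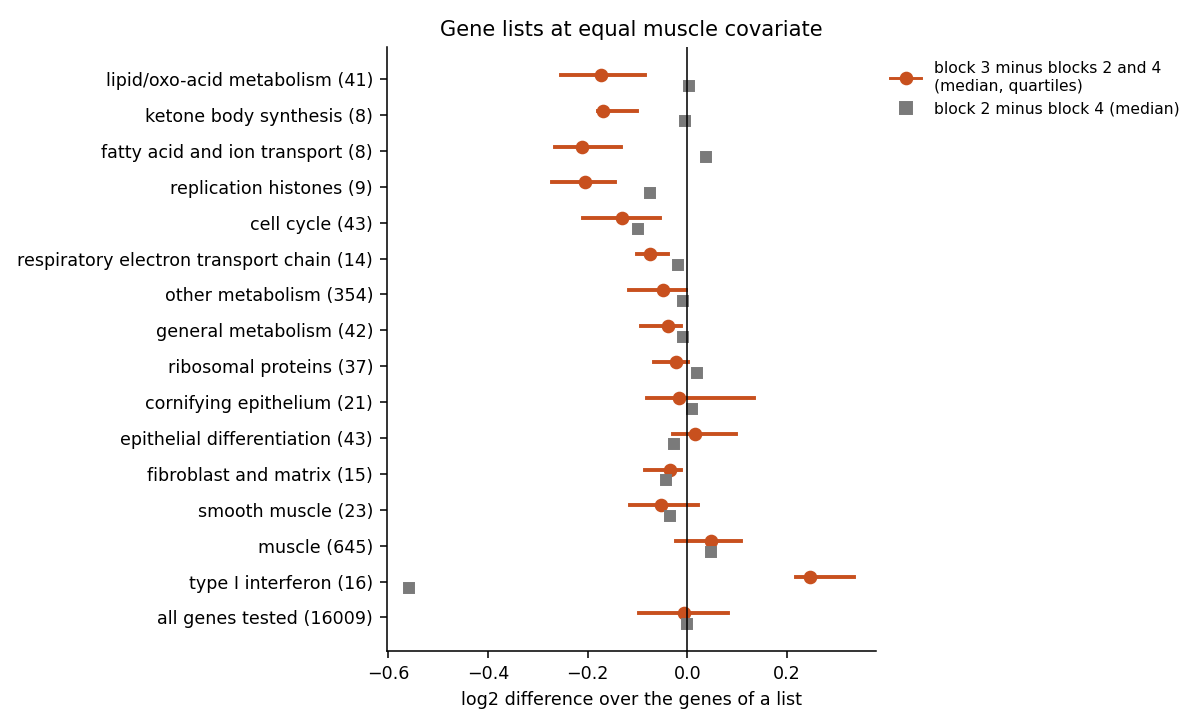
Median over the genes of each list of the log2 difference at equal muscle covariate (horizontal axis), with the quartiles as a bar, for block 3 minus blocks 2 and 4 (orange), and the median for block 2 minus block 4 (grey squares). The number of genes tested stands in brackets. The lists of lipid/oxo-acid metabolism, ketone body synthesis and transport lie at -0.17 to -0.21 and near 0 between blocks 2 and 4, while the type I interferon list is at 0.25 and -0.56.

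Markers of the cornified layer had median differences near 0. The 21 cornification markers had a median difference of -0.02, with 12 below 0. The 43 genes of the epithelial differentiation cluster had a median of 0.02, with 15 below 0. KRT6-B was the single cornification marker past the threshold. PAX9, a transcription factor of squamous epithelia, differed by -0.27 (SE 0.09, limma adjusted p = 0.266), while S100A9, a calcium-binding protein of inflamed and cornified epithelium, and TGM3, a transglutaminase that cross-links the cornified envelope, had differences of 0.41 (SE 0.25) and 0.28 (SE 0.18). LAMA3, a basement membrane laminin and the only basal marker with a symbol, differed by -0.22 (SE 0.08, adjusted p = 0.297).

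Histone genes were lower in value as well. Most cell division genes were below 0 against the mean of blocks 2 and 4, though fewer were against block 2 alone. No gene of either kind passed the adjusted threshold. All 9 replication-dependent histone genes were below 0 with a median of -0.20, and 4 had an unadjusted p under 0.05, beside 5.92% of all genes. The median was -0.14 against block 2, with 2 genes at that p, and -0.28 against block 4, with 5. All 9 were also lower in block 2 than in block 4, with a median of -0.07 and 0 genes at that p. HIST1H4C had medians of 3.52 log2 CPM in block 3, 3.78 in block 2 and 3.87 in block 4, and a difference of -0.34 (SE 0.12, limma adjusted p = 0.279). HIST1H2AG differed by -0.28 (SE 0.11). Without oz187 the median of the 9 genes was -0.13. Histone genes are near-identical copies whose single values are uncertain. Of the 43 genes of the cell cycle cluster, 38 were below 0 with a median of -0.13, and 9 (20.9%) had an unadjusted p under 0.05 in the lower direction. That median was -0.07 against block 2 and -0.18 against block 4, and block 2 was itself at -0.10 against block 4. RRM2, a subunit of ribonucleotide reductase, and BUB1B, a spindle checkpoint kinase, had differences of -0.11 and -0.07 against block 2 and of -0.38 and -0.35 against block 4. A few of these genes lay above 0 against the mean of blocks 2 and 4. Among them were ASPM, a spindle protein, TOP2A, a topoisomerase of dividing cells, and SMC2, a condensin subunit. Their differences were 0.06 (SE 0.13), 0.02 (SE 0.10) and 0.03 (SE 0.10). Of the 18 genes on the list of mitosis and replication, 15 were below 0 with a median of -0.09, and 0 had an unadjusted p under 0.05 in limma. Per sheep, the mean of these 18 genes averaged 4.417 log2 CPM in block 3, 4.418 in block 2 and 4.571 in block 4, and 7 of 14 block 3 sheep were under the median of blocks 2 and 4. Without oz70, 17 of the 43 genes in place of 9 had an unadjusted p under 0.05.

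No gene was higher in block 3 past the adjusted threshold. At equal covariate, the 5 with a symbol and the smallest p were FBXO32, RABGAP1, ANTXR2, PKN2 and LPGAT1. All 5 belonged to the muscle cluster of the study, which holds more measured genes than any other of its clusters. The covariate also narrowed the residual SD of each of these 5 genes, which favours a small p. Whether their shared membership exceeds the share of this cluster among genes with a symbol was not tested. FBXO32, a ubiquitin ligase of muscle, was 6.48 to 8.09 log2 CPM with a median of 7.44 in block 3, 6.09 to 7.79 with a median of 6.93 in block 2, and 5.91 to 7.67 with a median of 6.79 in block 4. Of the block 3 sheep 11 of 14 were above the median of the others, and the difference was 0.48 (SE 0.12, limma unadjusted p = 0.00027, adjusted p = 0.13). RABGAP1, a regulator of Rab GTPases, differed by 0.13, the kinase PKN2 by 0.18 and the acyltransferase LPGAT1 by 0.17, each with an unadjusted p under 0.05. Without the covariate the genes of smallest p in the higher direction also held LATS1, a kinase of the Hippo pathway (0.19), BRWD1, a bromodomain protein (0.12), and ZNFX1, a helicase of antiviral defence (0.25), and in the lower direction TRERF1, a regulator of transcription (-0.42, limma adjusted p = 0.35).

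The muscle cluster as a whole lay slightly above 0 at equal covariate, and its members did not move one way. Over its 645 tested genes the median was 0.05, with 82 (12.7%) higher and 15 (2.33%) lower at an unadjusted p under 0.05, beside 4.2% and 5.92% of all genes. The 15 lower genes became 9 without oz120, oz224 or oz70 and 7 without oz187. The cluster median was 0.02 against block 2 and 0.07 against block 4. Block 2 was itself above block 4, with a median of 0.05, similar in size to the block 3 median. Of the 645 genes, 78 were higher in block 2 than in block 4 at an unadjusted p under 0.05, where 3.69% of all genes were. Of the 23 textbook smooth muscle markers, 16 were below 0 with a median of -0.05. VCL, which anchors actin at adhesions, differed by -0.14 (SE 0.05, limma adjusted p = 0.304) and SMTN, a contractile regulator, by -0.14 (SE 0.08), whereas LMOD1, an actin nucleator of smooth muscle, differed by 0.15 (SE 0.08). KLHL41, a protein of striated muscle, differed by 0.35 (SE 0.12, adjusted p = 0.264). The 15 markers of fibroblasts and matrix had a median of -0.04, and none had an unadjusted p under 0.05. With the mean of the muscle cluster as the covariate in place of NEXN and KCNMA1, 49 genes of the cluster were higher and 40 lower at an unadjusted p under 0.05, with a median of 0.0074. The genes tested there also make up that covariate. A median near 0 and similar counts in both directions therefore follow from the fit.

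Genes of the study's pathway of transcription regulation were more often above than below 0. Of 146 genes, 32 were below 0 with a median of 0.05, and 24 (16.4%) were higher and 1 lower at an unadjusted p under 0.05, beside 4.2% and 5.92% of all genes. The median was 0.003 against block 2 and 0.12 against block 4. Block 2 was itself above block 4 in this list, with a median of 0.09 and 35 of 146 genes higher at an unadjusted p under 0.05, where 3.69% of all genes were. The 234 tested genes that the study had related to feed retention time had a median of -0.03 in block 3, made of -0.14 against block 2 and 0.08 against block 4. Of them, 82 were higher in block 2 than in block 4 at an unadjusted p under 0.05. The study drew this list from AUS sheep of this series, so it is not independent of these data. Both covariate genes were on it.

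The type I interferon genes had a higher median in block 3 than the mean of the reference blocks, which were themselves far apart. All 16 were above 0 in block 3 with a median of 0.25, and 3 had an unadjusted p under 0.05, beside 4.2% of all genes. Against block 2 the median was 0.53, and against block 4 it was -0.01. Block 2 was at -0.56 against block 4, with 13 of 16 genes at an unadjusted p under 0.05, where 2.9% of all genes were lower in block 2. MX1, an antiviral GTPase, ran from 3.77 to 9.47 log2 CPM with a median of 6.11 in block 3, from 3.31 to 5.99 with a median of 4.60 in block 2, and from 2.95 to 7.84 with a median of 5.78 in block 4. The highest sheep was oz238. Its difference was 0.81 (SE 0.35, limma adjusted p = 0.411), made of 1.42 against block 2 and 0.21 against block 4. DDX58, the RIG-I sensor of viral RNA, differed by 1.22 against block 2 and by -0.05 against block 4. Without oz141, 10 of the 16 genes in place of 3 had an unadjusted p under 0.05, 7 did without oz187, and 5 did without oz151. Without oz238 none of the 16 had one in limma, 2 lay below 0, the median went from 0.25 to 0.12, and the difference of MX1 from 0.81 to 0.55.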

How the data were processed

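RNA of 46 ventral rumen wall samples (blocks 2 to 4) was analyzed, grouped by the test block in the labels. The authors mapped reads (TopHat, Bowtie2) on sheep gene models of Ensembl, to which genes of the epidermal differentiation complex had been added, and used HTSeq for counting. The deposited values are log2 CPM from voom with an offset of 0.5 reads (16011 genes, 14 of them added models). edgeR and limma are named in the submitters' processing notes. Scaling each library so that low values fell on whole reads gave whole reads for 100% of values (tolerance 0.01 reads), from which depth was taken.

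Each gene was fitted in R 4.3.3 by limma 3.58.1 (moderated variances that follow mean expression, a factor of 3 blocks, contrast of block 3 with the mean of blocks 2 and 4), without and with the muscle covariate. The second fit leaves out the 2 covariate genes, hence 16009 genes. P-values were adjusted by Benjamini-Hochberg over all genes (threshold 0.05). Traits and the covariate were compared by 2-sided permutation tests (100000 permutations). The scripts were tested on simulated data. Python 3.11.15, numpy 2.4.6, scipy 1.17.1, pandas 2.3.3 and matplotlib 3.10.9 were used.

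The groups, covariate and gene lists were chosen with earlier results of these data known. Named genes were up to 10 per direction and fit past the threshold at a mean of 2 log2 CPM or more, up to 5 of smallest p where fewer than 5 passed, the 2 of largest moderated t per direction in each list, the covariate genes, and up to 2 IDs without symbol per direction. Lists were described by counts and medians, without a test. Alternatives were other covariates, filters, offsets, weights, centring, reference blocks, and the omission of single block 3 sheep. Some genes of the lists are not reported here, and the ketone body list was counted without them. Sequences and coordinates were not used here. Values assume sheep to be independent, although sires were shared, and counts at low expression rest on few reads.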

Additional observations from a re-analysis of the deposited data

How the results depend on the processing

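Without the muscle covariate, the 0 genes lower became 2 with all 62 sheep in the fit, 1 among genes at 3 CPM in all 46 libraries, 2 against block 4 only, and 0 to 2 over the omissions of single block 3 sheep. With the covariate, the 8 genes lower became 5 with all 62 sheep, 4 with libraries centred on their median, 4 with the mean of the whole muscle cluster as the covariate, 5 with the mean of the smooth muscle list, and 0 with live weight, with the mean of the other metabolism cluster, or against block 2 only. They were 3 to 11 over the omissions. The 0 genes higher became 4 with voom precision weights, 1 without oz151, 1 against block 4 only, 1 with DMI as a covariate, and 0 to 4 over the omissions. The fits with DMI, CH4 production and the other metabolism cluster as covariates were added after seeing the data. The cause was not tested. The remaining settings (2 groups, an offset of 5 reads, robust empirical Bayes, assigned reads as a covariate, separate muscle slopes) kept the count lower within 1.5 times.

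The muscle covariate difference was 0.0382 with the muscle cluster and ran from -0.0917 to 0.134 over the omissions. The CH4 yield difference became 19.6 g/kg with oz151 kept. Of 55 named genes in both fits, 3283 of 3355 values under alternatives kept direction and side of the threshold. Most of these genes were never past the threshold, so this count says little about the calls themselves. The call of KRT6-B was lost in 8 omissions and 12 other settings, and that of ENSOARG00000011840 in 7 and 8. The fit without oz151 counts both as an omission and as another setting. The calls of CBR1, TM7SF2 and ENSOARG00000007493 were each lost in 3 other settings. The sign changed for SLC9A3, which lay at -0.0354 to 0.0753 without and -0.0148 to 0.0464 with the covariate over the omissions, at -0.0019 and -0.0091 against block 2 only, and at -0.0038 with the smooth muscle covariate. Against block 4 only, DDX58 changed to -0.0559 without and -0.0550 with the covariate. With the other metabolism cluster as a covariate, ECHS1 changed to 0.00427 without and 0.000868 with the muscle covariate, ACAT1 to 0.0179 with it, and OXCT1 to -0.00022 and LMOD1 to -0.0652 without it. No paired analysis was possible because the blocks held different sheep and the labels pair none of them. With 14 sheep at this depth, the smallest difference past the threshold was -0.33 (log2), so smaller ones may be missed.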
